A study of Mus musculus with 12 samples.

Results

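The AP-1 immediate early genes described here were Jun, Junb, Jund, Fos, Fosb, Fosl1, Fosl2 and Atf3, chosen by gene symbol, and 8 of 8 were found among the 33696 genes of the files. They were measured by droplet single-cell RNA sequencing (10x Genomics, 3′ chemistry) in 3 sorted populations of C57BL6/J mice at least 5 weeks old: CD3+ CD4neg γδ T cells of the spleen, γδ T cells of the thymus that lacked CD4 and CD8, and DN1-DN2-DN3 cells, the CD4 and CD8 double-negative precursors of the thymus (DN below). In each population, wild-type (WT) mice were compared with GFI1 KO mice, which carry a germline deletion of the zinc-finger repressor GFI1 in all tissues, so that effects inside the cells cannot be told apart from effects of the surrounding animal. WT and KO cells carried different hashtag antibodies and were sorted and run together, which made 2 pools for each population and 12 libraries in all (2 per population and genotype) and for which the number of mice per pool is not given in the sources used here. B, myeloid and NK cells had been depleted with magnetic beads before sorting, and part of the CD8+ cells from the thymus. Of 97404 barcodes, 96911 passed the cell filter, with 42091895 to 71663962 unique molecular identifiers (UMIs, 1 per captured RNA molecule) per library and medians of 4947 to 6853 per cell. Trdc, the constant chain of the δ receptor, stood at 1233 to 2051 CPM (UMIs of a gene scaled to the same total in every library) in the γδ T libraries and at 126 to 199 CPM in the DN libraries, and the 7 precursor genes Ptcra, Il2ra, Kit, Rag1, Rag2, Dntt and Notch1 summed to 1523 to 2094 CPM in the DN libraries, against 113 to 278 CPM in the γδ T libraries. Gfi1 itself stood at 11.8 and 18.0 CPM in splenic WT and 18.1 and 18.1 CPM in splenic KO, at 16.5 and 17.6 against 28.9 and 19.2 CPM in thymic γδ T cells, and at 44.7 and 40.6 against 70.6 and 56.6 CPM in DN cells. Gfi1 RNA was therefore not lower in the libraries labelled KO, and since the sources used here do not say whether the 3′ tags lie in the deleted part, this measurement does not check the labels, and KO means labelled KO throughout. Xist stood at 0 to 0.374 CPM in the splenic libraries and at 739 to 1600 CPM in the thymic ones, so the spleen and thymus libraries also differed in this X-inactivation RNA, and population, droplet run and Xist level cannot be told apart.

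AP-1 is a dimer of basic leucine zipper proteins in which a Jun protein pairs with another Jun protein, a Fos protein or an ATF protein to bind DNA. Fos, Fosb, Jun and Atf3 are classical immediate early genes, transcribed within minutes of T cell receptor signals, growth factors or stress and switched off soon after, whereas Jund RNA is held at a steady level in most cells. In T cells AP-1 binds together with NFAT at cytokine genes, and with BATF or MAF family proteins it takes part in the programs of effector T cells.

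The 250 bases upstream of 3 start sites are shown first, since Fos and Fosb are the members that passed in opposite directions in spleen and DN cells and Jund was the member with the highest CPM. The sequences come from RefSeq on GRCm38.p6, an older build than the GRCm39 that the submitters' processing notes name, and a promoter window was present for 7 of 8 members (none for Fosl1). Fos lies on the plus strand with this stretch at chr12:85473640-85473889, Fosb on the minus strand at chr7:19310046-19310295, and Jund on the plus strand at chr8:70697489-70697738, each read 5′ to 3′ on the gene's strand, and capitals mark the motif matches given next (in Fosb there is none).

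Fos: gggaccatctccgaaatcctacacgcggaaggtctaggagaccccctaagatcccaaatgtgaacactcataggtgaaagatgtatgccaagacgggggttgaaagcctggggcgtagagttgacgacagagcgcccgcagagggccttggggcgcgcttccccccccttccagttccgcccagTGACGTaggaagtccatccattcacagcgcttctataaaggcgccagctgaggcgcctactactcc

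Fosb: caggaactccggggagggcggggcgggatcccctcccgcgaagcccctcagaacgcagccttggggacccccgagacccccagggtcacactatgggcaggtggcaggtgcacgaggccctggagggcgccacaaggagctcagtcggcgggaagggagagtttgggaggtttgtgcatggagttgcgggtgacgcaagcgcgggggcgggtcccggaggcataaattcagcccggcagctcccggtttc

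Jund: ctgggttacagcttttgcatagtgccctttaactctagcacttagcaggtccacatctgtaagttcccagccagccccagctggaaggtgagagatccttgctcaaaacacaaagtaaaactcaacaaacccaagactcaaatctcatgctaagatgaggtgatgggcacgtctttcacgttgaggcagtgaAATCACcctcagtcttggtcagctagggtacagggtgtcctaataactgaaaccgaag

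Windows of 300 bases (the upstream stretch and the first 50 bases after the start) were searched on both strands for TGANTCA (the AP-1 site), TGACGTCA (the CRE), the CArG box of SRF, AATCAC (the core of the GFI1 motif) and TGACGT (the first 6 letters of the CRE, added after the windows had been read, and contained in every TGACGTCA). TGANTCA, TGACGTCA and the CArG box were in none of the 7 windows, and they were in 7.81%, 1.79% and 1.63% of the 32851 promoter windows of this length. AATCAC was in 1 window, that of Jund, at position -58 from the start site, against 10.4% of all windows. TGACGT was in 2 windows, at -66 in Fos and at -8 on the opposite strand in Atf3, against 7.51% of all windows. These matches describe letters only. Sites more than 250 bases upstream lay outside the windows and could not be found. TGANTCA also misses sites of other spacing, such as TGACATCA in the Jun window, so absence here does not show that a gene lacks such sites.

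KO and WT differed in 4 to 6 of the 8 members, depending on the population. By edgeR's quasi-likelihood test on UMI sums per library, with Benjamini-Hochberg adjustment over 14911 genes, 6 of 8 members passed in spleen (3 higher in KO and 3 lower) where 54.8% of all genes passed, 5 of 8 in thymic γδ T cells (4 higher, 1 lower) where 49.7% passed, and 4 of 8 in DN cells (4 higher, 0 lower) where 23% passed. The median absolute log2 difference of the members was 1.58, 1.53 and 1.64 in these comparisons, or 1.39, 1.33 and 1.64 for the 6 members other than Fosl1 and Atf3, whose fitted values rest on few UMIs, and that of all genes tested was 0.53, 0.46 and 0.26. The shares of members called in both γδ T populations were thus not far from those of all genes, and what follows gives the members' own values. Fosl2 rose in KO in all 3 populations, Jun and Jund rose in both γδ T populations, and Fos fell in KO spleen and rose in KO DN cells. Cell quality also moved with genotype in thymic γδ T cells. There the median mitochondrial share was 2.15% and 2.10% in WT and 2.79% and 3.12% in KO. Median UMIs per cell there were 6853 and 6850 in WT and 5742 and 5665 in KO. Median mitochondrial shares overlapped in spleen and DN cells, but median UMIs per cell did not. In spleen they were 4947 and 5025.5 in WT and 5458 and 5402 in KO. In DN cells they were 6231 and 5975 in WT and 5590.5 and 5792 in KO. The part of cell quality in the member differences was not tested. Between the 2 pools of a population, in the fit with genotype and pool, 0 members passed in spleen, thymic γδ T cells and DN cells, where 0.0738%, 0% and 0.0134% of all genes passed. DESeq2 likewise called 0 members between pools, and at an unadjusted p under 0.05 only Fos and Fosb differed, both in DN cells, while over all genes 1388, 595 and 3063 had such a p in the 3 pool comparisons. With 2 libraries a group, these p-values measure the spread between libraries, and nothing in the sources says that each came from a separate animal.

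**Figure D1:**
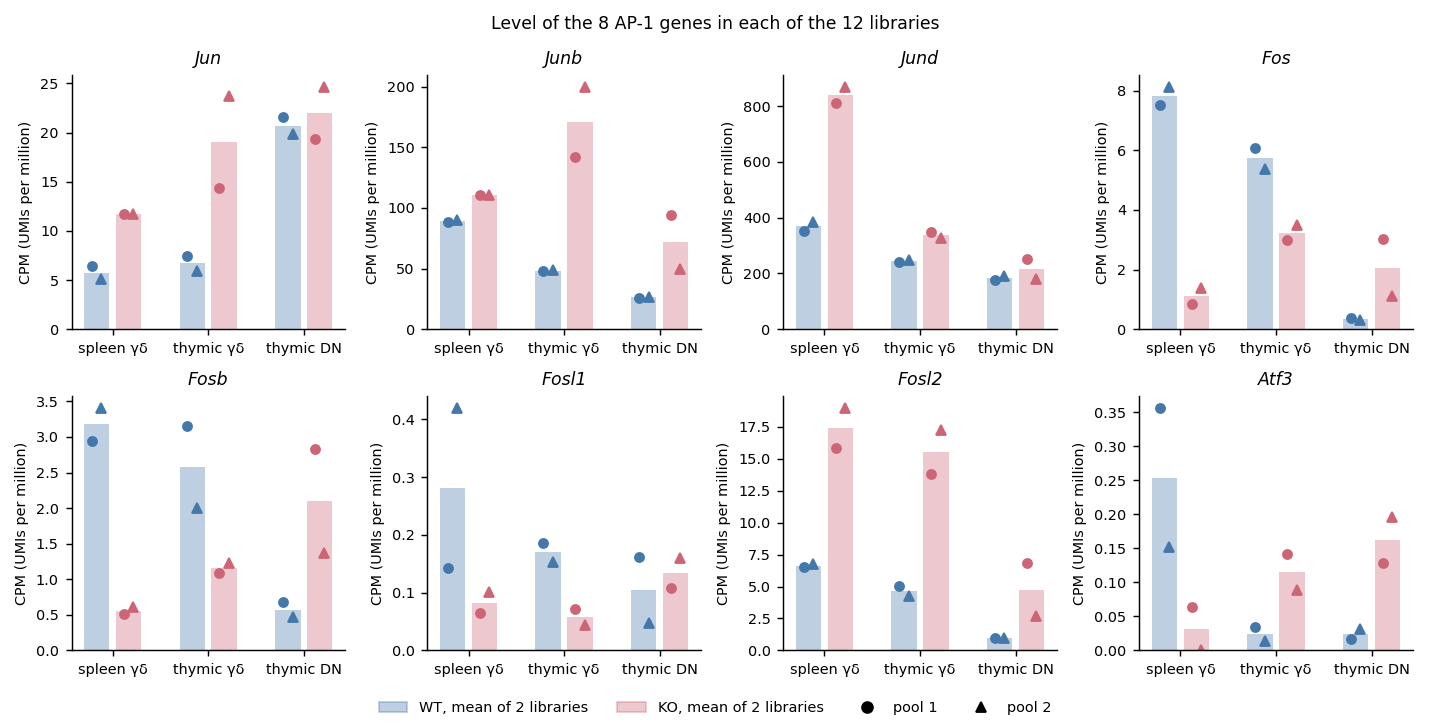
CPM of each of the 8 AP-1 genes on linear axes from 0, with bars for the mean of the 2 WT (blue) or KO (red) libraries, circles for pool 1 and triangles for pool 2, in spleen γδ, thymic γδ and thymic DN cells. The Fos points of KO lie under those of WT in spleen (0.833 and 1.38 against 7.53 and 8.13 CPM) and above them in DN cells (3.02 and 1.10 against 0.372 and 0.305 CPM), while those of Fosl2 lie above WT in all 3 populations.

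Jun encodes c-Jun, a strong activator. In spleen its level was 6.39 and 5.09 CPM in WT pools 1 and 2 and 11.8 and 11.8 CPM in KO. The thymic γδ T cells had 7.50 and 5.87 CPM in WT and 14.3 and 23.7 CPM in KO. Both KO libraries lay above both WT libraries in these populations. The log2 difference was 1.14 ± 0.26 (SE, n = 2 against 2, adjusted p = 0.00421) in spleen and 1.64 ± 0.26 in thymic γδ T cells (adjusted p = 0.000518), against pool differences of -0.18 (95% interval -0.85 to 0.49) and 0.25 (-0.41 to 0.91). DN cells held more Jun RNA in WT, 21.6 and 19.8 CPM, and their KO libraries, at 19.4 and 24.7 CPM, overlapped with them. There the genotype difference was 0.10 (95% interval -0.45 to 0.65, adjusted p = 0.804) and the pool difference 0.21 (-0.42 to 0.84). An antisense gene, Junos, overlaps Jun.

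Junb encodes a Jun protein that activates less strongly than c-Jun and is known for its part in IL-17-producing T cells. Its level in spleen was 88.2 and 90.1 CPM in WT and 110.5 and 110.7 CPM in KO, which did not overlap. The log2 difference of 0.41 did not pass (95% interval -0.13 to 0.94, adjusted p = 0.176), though it did when the spread came from the 4 splenic libraries alone (0.36, adjusted p = 0.00268). Thymic γδ T cells had 48.0 and 48.6 CPM in WT and 142 and 199.97 CPM in KO, a rise of 1.95 ± 0.25 on the log2 scale (SE, adjusted p = 0.00014). In DN cells it was 26.0 and 26.6 CPM in WT and 94.5 and 49.3 CPM in KO. This was a rise of 1.43 ± 0.24 (adjusted p = 0.00269), with KO pool 1 well above KO pool 2 and both above WT. The pool differences were -0.01 (95% interval -0.54 to 0.53) in spleen, 0.30 (-0.24 to 0.84) in thymic γδ T cells and -0.36 (-0.92 to 0.19) in DN cells. Cells with a UMI of Trac, the constant chain of the αβ T cell receptor, made up 7.09% and 6.53% of DN WT and 35.2% and 17.9% of DN KO cells, so KO pool 1 was the higher of the KO libraries in both measures. Without the cells that had a Trac UMI or B or myeloid markers, the Junb difference in DN cells was 0.80 and no longer passed (adjusted p = 0.0515). This setting was chosen after seeing the data. It left out 7.41% and 6.63% of DN WT cells and 35.6% and 18.8% of DN KO cells. In it 1982 genes passed between genotypes in DN cells, against 3424 in the full data, so a lost call is not particular to Junb. Prdx2 overlaps Junb on the opposite strand.

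Jund encodes JunD, a Jun protein linked with slower growth. Its RNA had the highest CPM of the 8 genes in every library. In spleen it stood at 354 and 385 CPM in WT and at 812 and 869.9 CPM in KO, a rise of 1.28 ± 0.13 on the log2 scale (SE, adjusted p = 1.87e-05). Thymic γδ T cells had 240.0 and 247 CPM in WT and 350.5 and 327 CPM in KO, a rise of 0.60 ± 0.13 (adjusted p = 0.00305). The genotypes did not overlap in either population, and the pool differences were 0.09 (95% interval -0.22 to 0.40) and 0.01 (-0.30 to 0.32). In DN cells the KO library of pool 1 was high and that of pool 2 lay between the WT libraries, with 175 and 191 CPM in WT and 254 and 181 CPM in KO. The difference of 0.24 (95% interval -0.05 to 0.52) did not pass (adjusted p = 0.21), and it did without KO pool 2 (0.38, adjusted p = 0.0278). The pool difference in DN cells was -0.08 (-0.39 to 0.23). Gm11175, an antisense gene, overlaps Jund.

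Fos encodes c-Fos, which cannot pair with itself and needs a Jun partner to bind DNA. In splenic WT cells its level was 7.53 and 8.13 CPM, and in KO it was 0.833 and 1.38 CPM. This was a fall by 2.71 on the log2 scale (SE 0.37, adjusted p = 0.000174), with a pool difference of 0.33 (95% interval -0.31 to 0.96). WT thymic γδ T cells stood at 6.09 and 5.39 CPM and KO at 2.999 and 3.48 CPM. The libraries did not overlap, but the difference of -0.70 did not pass (95% interval -1.47 to 0.08, adjusted p = 0.122); with only these 4 libraries in the fit it did (-0.70, adjusted p = 0.018), and the pool difference was 0.04 (-0.56 to 0.64). In DN cells the order was the opposite, with 0.372 and 0.305 CPM in WT and 3.02 and 1.10 CPM in KO. This rise was 2.57 ± 0.43 (SE, adjusted p = 0.0023). Beside it stood the largest Fos pool difference, -0.98 (95% interval -1.75 to -0.20, unadjusted p = 0.0212, adjusted p = 0.171), since KO pool 1 was well above KO pool 2. Within pools, the CPM ratio of KO to WT in DN cells was 3.02 on the log2 scale in pool 1 and 1.85 in pool 2.

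Fosb encodes FosB and a truncated form that lacks the activating end. Splenic WT libraries held 2.95 and 3.41 CPM and KO libraries 0.513 and 0.604 CPM. The log2 difference was -2.40 ± 0.36 (SE, adjusted p = 0.000263), beside a pool difference of 0.20 (95% interval -0.47 to 0.87). Thymic γδ T cells held 3.16 and 2.00 CPM in WT and 1.09 and 1.23 CPM in KO. That difference was -1.02 ± 0.34 (adjusted p = 0.0288), beside a pool difference of -0.27 (-0.91 to 0.37). It passed only narrowly: the adjusted p was 0.216 without WT pool 1 (difference -0.66), 0.131 without KO pool 1, 0.0703 without KO pool 2, and 0.119 without Trac, B-marker and myeloid-marker cells (-0.68). DN cells again had the opposite order, 0.680 and 0.465 CPM in WT and 2.83 and 1.37 CPM in KO. The rise was 1.85 ± 0.36 (adjusted p = 0.00447), or 1.64 without WT pool 2 (adjusted p = 0.0509), beside a pool difference of -0.74 (-1.42 to -0.06, unadjusted p = 0.0372, adjusted p = 0.214).

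Fosl2 encodes Fra-2, a Fos protein without the strong activating end of c-Fos. It rose in KO in every population. In spleen it went from 6.53 and 6.74 CPM in WT to 15.9 and 19.0 CPM in KO (log2 difference 1.49 ± 0.31, SE, adjusted p = 0.00256). Among thymic γδ T cells it went from 5.04 and 4.23 CPM to 13.8 and 17.3 CPM (1.88 ± 0.32, adjusted p = 0.000816). DN cells started lower, at 0.971 and 0.931 CPM, and reached 6.84 and 2.67 CPM in KO (2.29 ± 0.36, adjusted p = 0.00166). No WT library reached its KO counterparts. The pool differences were 0.13 (95% interval -0.50 to 0.76), 0.09 (-0.54 to 0.73) and -0.76 (-1.53 to 0.00134), and in DN cells KO pool 1 was again the higher.

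Fosl1 encodes Fra-1, which is close to Fra-2, and Atf3 encodes a stress-induced partner of Jun proteins that can repress. Both were so rare that UMIs are given in place of a fitted fold change, with exact intervals that cover counting error only. Fosl1 had 6 and 25 UMIs in splenic WT and 3 and 7 in KO, a KO to WT ratio, scaled to library size, of 0.282 (95% interval 0.123 to 0.590), but the test across libraries did not pass (adjusted p = 0.052), unless WT pool 1 was left out (0.0175) or RLE size factors were used (0.0497). Thymic γδ T cells had 11 and 11 UMIs in WT and 3 and 2 in KO (ratio 0.338, 0.1001 to 0.916, adjusted p = 0.163), and in DN cells 10 and 3 against 5 and 9. Ccdc85b overlaps Fosl1 on the opposite strand. Atf3 had 15 and 9 UMIs in splenic WT and 3 and 0 in KO. In WT they came from 7 and 5 cells, and 1 cell of pool 1 held 9 UMIs. The ratio was 0.109 (95% interval 0.0210 to 0.360, which treats each UMI as independent), and the test across libraries passed (adjusted p = 0.0184). This call was lost without WT pool 1 (adjusted p = 0.107), without KO pool 2 (0.135) and in DESeq2 (0.0501). Its UMIs were 2 and 1 in WT against 6 and 4 in KO in thymic γδ T cells (adjusted p = 0.0903), and 1 and 2 against 6 and 11 in DN cells (adjusted p = 0.0738), so neither of these differences passed. The ratios were 4.96 (1.28 to 28.1) and 6.83 (1.98 to 36.4). Atf3 overlaps the small RNA gene Gm24748 on the opposite strand.

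**Figure D2:**
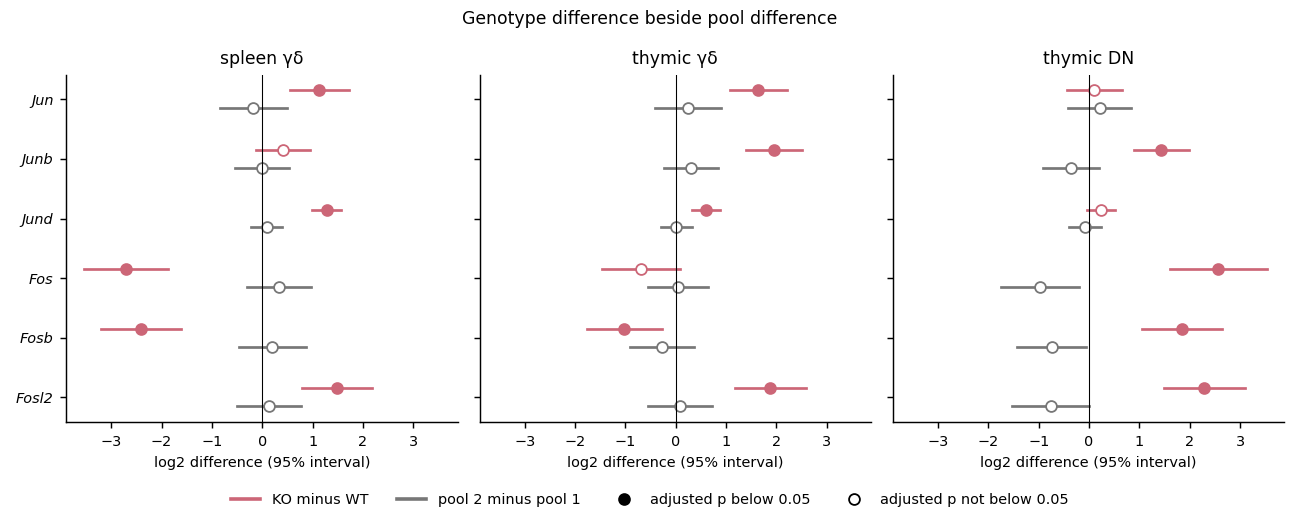
Log2 differences with 95% intervals from the edgeR fits for the 6 members other than Fosl1 and Atf3, KO minus WT in red and pool 2 minus pool 1 in grey, with filled points where the adjusted p is below 0.05. Fos and Fosb lie left of 0 in spleen (-2.71 and -2.40) and right of 0 in DN cells (2.57 and 1.85), and among the pool intervals those of Fos and Fosb in DN cells exclude 0 though no pool point is filled.

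The genotype differences were then compared between populations in the same fit. Between spleen and thymic γδ T cells, 4 of 8 members had KO effects that differed (1 higher and 3 lower in spleen), where 29.5% of all genes did. The effect on Junb differed by -1.55 ± 0.34 on the log2 scale (SE, adjusted p = 0.00803), and that on Jund 0.68 ± 0.18 higher (adjusted p = 0.0181). The effect on Fos differed by -2.01 ± 0.50 (adjusted p = 0.0145), and that on Atf3 passed with few UMIs (adjusted p = 0.0178). The Junb result kept its call without each library in turn. Jund lost it without splenic WT pool 1 (0.57, adjusted p = 0.0902), splenic KO pool 2 (0.66, 0.0554), thymic WT pool 1 (0.70, 0.0511) or thymic WT pool 2 (0.61, 0.0862). Fos lost it without splenic KO pool 1 (-1.74, adjusted p = 0.0534) or thymic WT pool 2 (-1.98, 0.0543), and Atf3 without splenic WT pool 1 (adjusted p = 0.0522), thymic WT pool 2 (0.0722) or thymic KO pool 1 (0.072), while DESeq2 gave Atf3 no adjusted p and so no call. The difference for Fosb, -1.39 ± 0.49, did not pass (adjusted p = 0.0566) but did with the pools as a replicate block (-1.42, adjusted p = 0.0317), without the filter on low counts (0.0487), with only these populations in the fit (-1.35, 0.0267), without thymic WT pool 1 (-1.75, 0.0461) and without B-marker, myeloid-marker and Trac cells (-1.48, 0.0424). Between thymic γδ T and DN cells, 3 of 8 members differed (1 higher, 2 lower), where 21.8% of all genes did. These were Jun (1.54 ± 0.35, adjusted p = 0.0129), Fos (-3.26 ± 0.55, 0.00317) and Fosb (-2.87 ± 0.49, 0.00314). Fos and Fosb kept the call without each library in turn, and Jun lost it without thymic WT pool 2 (1.36, adjusted p = 0.0595). The effect on Fosl2 was not shown to differ in either comparison (-0.39, 95% interval -1.36 to 0.58, and -0.41, -1.46 to 0.64), although the second passed without DN KO pool 2 (-0.94, adjusted p = 0.0249). Junb (0.52) and Jund (0.36) did not pass between thymic γδ T and DN cells, and without DN KO pool 1 both did (0.94, adjusted p = 0.0178, and 0.51, 0.0294). Both also did without B-marker, myeloid-marker and Trac cells (Junb 1.20, adjusted p = 0.0231, and Jund 0.82, 0.00259), a setting chosen after seeing the data.

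WT levels also differed between populations. From thymic γδ T to splenic γδ T cells, 3 of 8 members were higher in spleen where 48.8% of all genes differed: Junb by 0.96 (adjusted p = 0.00843), Jund by 0.68 (0.00168) and Atf3 (0.0117), of which Junb lost the call without thymic WT pool 1 (0.95, adjusted p = 0.0537) and Atf3 without splenic WT pool 1 (0.073) or thymic WT pool 2 (0.0905). Fos, Fosb, Fosl1, Fosl2 and Jun did not pass between these neighbours, though Fos (0.53, adjusted p = 0.00563) and Fosl2 (0.60, 0.00544) did with only these libraries in the fit. Between WT thymic γδ T and WT DN cells, 6 of 8 members passed where 47.2% of all genes did. Fos was higher in thymic γδ T cells by 4.10 ± 0.42 on the log2 scale (SE, adjusted p = 4.95e-05), Fosl2 by 2.30 ± 0.35 (0.000577) and Fosb by 2.19 ± 0.35 (0.000665), and Jun was lower by 1.61, a difference of -1.61 ± 0.25 (0.000662). Junb (0.89, adjusted p = 0.0128) and Jund (0.43, 0.0189) passed as well. They lost the call without thymic WT pool 1 (Junb 0.90, adjusted p = 0.0556; Jund 0.45, 0.0708), thymic WT pool 2 (0.85, 0.0565, and 0.37, 0.116) or DN WT pool 1 (0.82, 0.0722, and 0.31, 0.135). In WT, the CPM of Fos, Fosb and Fosl2 was lowest in DN cells and that of Jun highest there, but spleen was not tested against DN cells.

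Most Fos RNA of splenic WT libraries came from very few cells. Cells with at least 3 Fos UMIs (a threshold chosen after seeing the data, so the counts are a description) numbered 26 of 7820 and 39 of 11160 in splenic WT, or 0.332% (95% Wilson interval 0.227 to 0.487) and 0.349% (0.256 to 0.477). They held 83.9% and 77.5% of the Fos UMIs of their libraries. In splenic KO there were 3 of 7815 and 6 of 11679 such cells, or 0.0384% (0.0131 to 0.113) and 0.0514% (0.0235 to 0.112), and they held 23.1% and 24.0% of the Fos UMIs. Thymic γδ T cells had 27 and 25 in WT and 5 and 5 in KO, and in DN cells 0 and 1 in WT and 4 and 4 in KO. In the cells under this threshold, Fos stood at 1.22 and 1.84 CPM in splenic WT and 0.641 and 1.05 CPM in splenic KO. In thymic γδ T cells under it the genotypes overlapped, with 2.39 and 2.74 CPM in WT and 1.96 and 2.78 CPM in KO. In DN cells under it Fos stood at 0.372 and 0.257 CPM in WT and 2.70 and 0.836 CPM in KO.

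**Figure D3:**
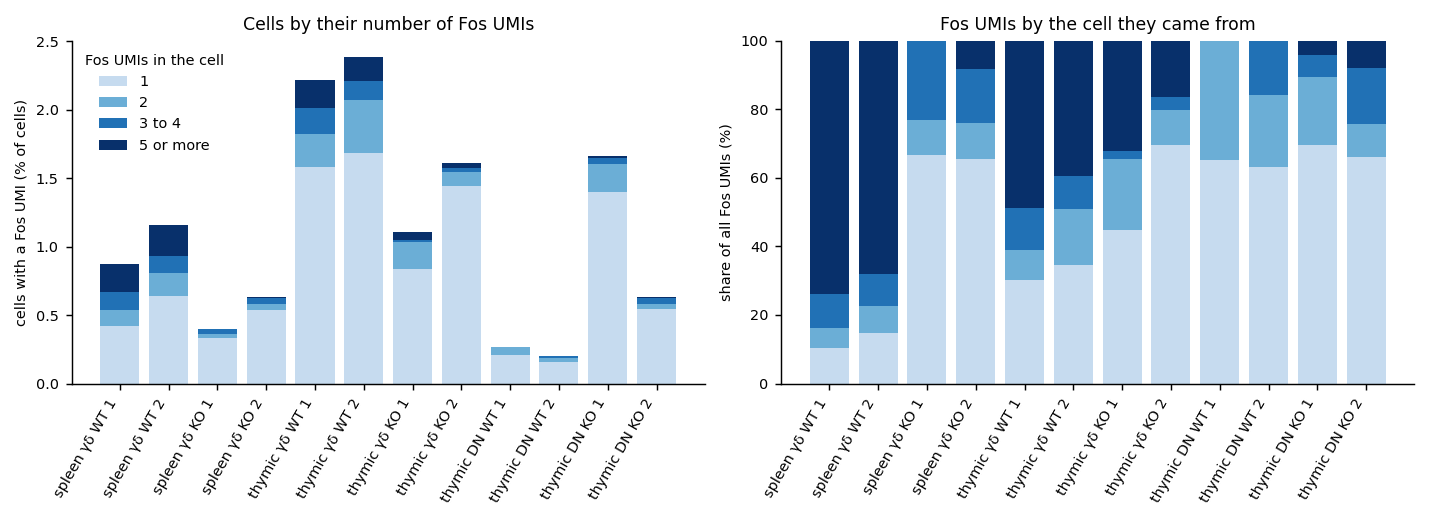
Left, percent of the cells of each library with 1, 2, 3 to 4, or 5 or more Fos UMIs, as stacked bars; right, percent of the library's Fos UMIs that came from cells of each kind. Cells with 3 or more UMIs (both darker shades) hold 83.9% and 77.5% of the Fos UMIs in the splenic WT libraries and 23.1% and 24.0% in the splenic KO libraries.

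The splenic WT cells with 3 or more Fos UMIs carried γδ T cell RNA. Trdc was seen in 25 of 26 and 38 of 39 of them and Cd3e in 26 and 37, with no cell holding a UMI of Cd79a (B cells), Lyz2 (myeloid cells) or Trgv6. Trac was seen in 42.3% and 41.0% of them, against 30.2% and 23.6% of the other cells. Egr1, an immediate early zinc-finger gene, was detected in 25 of 26 and 39 of 39, against 4.12% and 5.18% of the other cells, and Fosb in 61.5% and 59.0%, against 0.423% and 0.459%. Besides Fos, the genes with the largest ratio of CPM to the other splenic cells, with 10 CPM added to both values, were Egr1 (1759 against 21.2 CPM), Nr4a3 (669.5 against 9.85 CPM), Fosb (382 against 1.64 CPM), Egr3 and Egr2, with Ccl4, Nr4a1 and the activation marker Cd69 also in the first 10. In DN KO pool 2, by contrast, 4 of 4 cells with 3 or more Fos UMIs had a Cd79a UMI and 0 had Trdc. Among the other cells of that library, 0.847% had Cd79a and 41.9% had Trdc. In pool 1, 1 of 4 had Cd79a. Cells with 3 or more Fos UMIs held only 10.6% and 24.2% of the Fos UMIs of DN KO pools 1 and 2.

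The shares of cells with a UMI were compared as well, before and after thinning to a fixed depth. Jund was detected in 69.0% and 70.8% of splenic WT and 91.9% and 93.2% of KO cells, and after each cell was thinned to 2000 UMIs (123 to 1190 shallower cells per library left out) in 45.5% and 48.9% against 72.2% and 76.1%. Junb was detected in 26.6% and 28.4% of thymic WT γδ T cells and 45.1% and 55.0% of KO cells, or in 9.45% and 9.63% against 22.4% and 31.2% after thinning. Fos was found in 0.870% and 1.16% of splenic WT and 0.397% and 0.634% of KO cells, and in 0.264% and 0.201% of DN WT and 1.66% and 0.635% of DN KO cells. In thymic γδ T cells the share of cells with Jund overlapped between genotypes (69.4% and 72.3% in WT, 73.0% and 70.6% in KO) but not after thinning (36.5% and 38.5% against 45.5% and 43.0%). In DN cells Jun was found in 14.1% and 13.2% of WT and 9.79% and 13.6% of KO cells, and at 2000 UMIs in 5.54% and 5.16% against 3.68% and 4.90%. At 1000 UMIs these shares overlapped (2.58% and 2.56% against 1.98% and 2.87%), and the CPM overlapped as well, so no order is read. With 2 libraries against 2 the exact two-sided permutation test cannot give a p under 0.33, which is the value of each of these comparisons that did not overlap. No population in these sorts is known to lack AP-1 RNA, so no background share from free RNA can be given, and the lowest share of Fos, in WT DN cells (median 6231 and 5975 UMIs per cell), is given as measured.

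The makeup of the libraries differed between genotypes, and members were also compared within classes of cells. Cells whose leading Tcrg variable gene was Trgv6, which marks a γδ T cell subset known for IL-17, were 2.40% and 2.05% of splenic WT and 43.8% and 39.5% of splenic KO cells, and 0.601% and 0.715% against 29.8% and 35.3% in thymic γδ T cells. Reads from the 3′ end catch few receptor variable regions, and in spleen Trgv6-called and other-called cells differed in 26.8% of genes in WT but in 0.178% in KO, so cells called for other Trgv genes are not shown to be the same kind of cells in both genotypes. Among splenic cells called for other Trgv genes, 6 of 6 members tested differed between KO and WT (4 higher, 2 lower), where 58.4% of genes did. Fos there was 8.58 and 8.53 CPM in WT and 1.09 and 1.48 CPM in KO (log2 difference -2.63 ± 0.22, SE, adjusted p = 9.99e-06), Jund rose by 1.26 ± 0.08 (1.86e-06) and Fosl2 by 1.39 ± 0.15 (5.46e-05). In Trgv6-called splenic cells, 3 of 5 members tested rose in KO, where 12% of genes differed. Jund went from 517 and 455 CPM to 806 and 854 CPM (0.73, adjusted p = 0.00408), Fosl2 from 9.37 and 4.98 to 16.2 and 18.4 CPM (1.26, 0.0212), and Jun rested on 2 and 5 UMIs in WT (2.02, 0.00805). Without KO pool 2 the adjusted p of Jund, Fosl2 and Jun was 0.0832, 0.149 and 0.0584, and that of Fosl2 was 0.215 without WT pool 2 and 0.0536 without KO pool 1. Where a Trgv call needed 2 UMIs, Jun no longer passed (1.22, adjusted p = 0.148), and in DESeq2 Fosl2 did not (0.0656). Junb did not pass (0.43, adjusted p = 0.0564) but did without WT pool 1 (0.0487). Fos had 0 and 2 UMIs in the WT cells of this class.

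Within the same splenic libraries, Trgv6-called cells differed from other-called cells in 2 of 6 members in WT, where 26.8% of genes differed. Jund was higher by 0.44 ± 0.08 (adjusted p = 0.000364), and with single libraries left out its difference ranged from 0.25 to 0.63. Fos was lower (adjusted p = 0.00113), on 0 and 2 UMIs among 188 and 229 Trgv6-called cells. Among other-called cells, 14 and 22 held 3 or more Fos UMIs. The test on UMI sums takes no account of how few cells held the Fos RNA. In KO, 0 of 6 differed by edgeR, where 0.178% of genes did, and 0 by DESeq2. An unadjusted p under 0.05 was given by edgeR for 0 of 6 members and for 602 of 12924 genes. The thymic γδ T libraries of WT had only 41 and 57 Trgv6-called cells. There 2 of 6 members were higher in Trgv6-called than other-called cells in WT (Jun and Junb, 3.7% of genes) and 2 of 6 in KO (Jun by 0.63, adjusted p = 0.00374, and Junb by 0.53, 0.000423, with 30.2% of genes). In KO, Junb was 170.0 and 230.4 CPM in Trgv6-called and 120 and 165 CPM in other-called cells of pools 1 and 2. Both KO calls were lost without KO pool 1 (adjusted p = 0.667 and 0.193) or KO pool 2 (0.264 and 0.128), and Jund and Fosl2 passed in KO without WT pool 1 (0.0457 and 0.0395) or WT pool 2 (0.0466 and 0.039), as did Fosl2 where a Trgv call needed 2 UMIs (0.62, 0.0357). The KO call of Jun was also lost in DESeq2 (0.0999). The WT call of Jun was lost without WT pool 1 (0.201), WT pool 2 (0.324) or KO pool 2 (0.0623), and that of Junb without WT pool 2 (0.12), and both where a Trgv call needed 2 UMIs (0.299 and 0.0505). Between genotypes, 5 of 6 members passed in other-called thymic cells (45.3% of genes), with Junb at 45.3 and 46.4 CPM in WT and 120 and 165 CPM in KO (1.73 ± 0.17, SE, adjusted p = 0.00187), and Jund (0.52) and Fosl2 (1.72) higher as well. Fosb (-1.14, adjusted p = 0.0418) and Jun (1.36, 0.018) passed too, but the Fosb call was lost without WT pool 1 (0.273), WT pool 2 (0.0625) or KO pool 1 (0.114), in DESeq2 (0.0663) and where a Trgv call needed 2 UMIs (0.0537), and that of Jun without WT pool 1 (0.0951) or WT pool 2 (0.146). Fos (-0.70) did not pass, but did without KO pool 2 (-1.22, adjusted p = 0.000331). In Trgv6-called thymic cells 3 of 5 passed (15.8% of genes). Of these, Fosl2 had 0 and 1 UMIs in WT, under the level of 3 UMIs a library. It could enter the test only through its KO libraries (17.1 and 18.1 CPM), so its call is not read as a result. Junb (1.02, adjusted p = 0.014) lost its call without WT pool 1 (0.316), WT pool 2 (0.334) or KO pool 2 (0.0519), and Jund (0.51, 0.0445) without WT pool 2 (0.231), KO pool 1 (0.367) or KO pool 2 (0.198). In DESeq2 Jund (0.0659) and Fosl2 (0.0683) did not pass there, and where a Trgv call needed 2 UMIs none of the 3 did (Junb 0.187, Jund 0.162, Fosl2 0.0737).

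Cells with a UMI of Ptcra, the pre-T cell receptor α chain, made up 43.6% and 48.8% of DN WT and 29.0% and 47.3% of DN KO cells. B-marker cells (9 and 4 in WT, 29 and 62 in KO) were put in neither class, so class values are not comparable with those of whole DN libraries. In KO pool 2, for example, Ptcra cells held 15 and cells without Ptcra 29 of the 62 Fos UMIs, and 23 and 36 of the 77 Fosb UMIs. Among DN cells without Ptcra, 4 of 6 members rose in KO, where 19.9% of genes differed. Junb there went from 28.1 and 29.2 CPM to 131 and 79.7 CPM (1.90 ± 0.22, SE, adjusted p = 0.00128), and Fosl2 from 1.24 and 1.29 CPM to 10.1 and 4.85 CPM (2.58 ± 0.36, 0.00265). Fos went from 0.478 and 0.204 CPM to 3.90 and 1.16 CPM (2.90 ± 0.63, adjusted p = 0.0169), a call that was lost without WT pool 1 (0.0589) or WT pool 2 (0.102), and that of Fosb (1.83, 0.0308) was lost without WT pool 1 (0.0973), WT pool 2 (0.196) or KO pool 1 (0.0506). Without KO pool 2, Jund (0.76, 0.000609) and Jun (-0.43, 0.0234) also passed, and DESeq2 called Jund with all libraries (0.58, adjusted p = 0.0162). In Ptcra cells 0 of 6 members passed by edgeR, where 13.6% of genes did. An unadjusted p under 0.05 was given for 6 of 6 members and for 3340 of 12970 genes. DESeq2 called 1 member in Ptcra cells (Jund, -0.37, adjusted p = 0.0195). With the pools as a replicate block 3 passed there, Jun (0.34, adjusted p = 0.0137), Jund (-0.38, 0.00267) and Fosb (1.33, 0.026), and Junb in these cells was 23.8 and 24.2 CPM in WT and 35.1 and 25.0 CPM in KO. Leaving out KO pool 1 gave Jun (0.46, 0.00487), and leaving out KO pool 2 gave Junb (0.49, 0.00317), Fos (1.72, 0.01) and Fosb (1.80, 0.00135). Within KO libraries, Ptcra cells differed from the others in 6 of 6 members (42% of genes): Jun was higher by 1.04 ± 0.08 (adjusted p = 3.76e-05), and the 5 others were lower, from Jund at -0.94 to Fosl2 at -2.58, with the Fosb call lost without KO pool 1 (adjusted p = 0.0827) and those of Fos (0.0551) and Fosb (0.154) lost in DESeq2. Within WT libraries 1 of 6 differed (10.1% of genes), Jun by 0.38 (adjusted p = 0.018), a call lost without WT pool 1 (0.177) or WT pool 2 (0.339) and in DESeq2 (0.123), while Junb and Fosl2 passed without KO pool 1 (0.000196 and 0.01) or KO pool 2 (0.000324 and 0.00757).

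**Figure D4:**
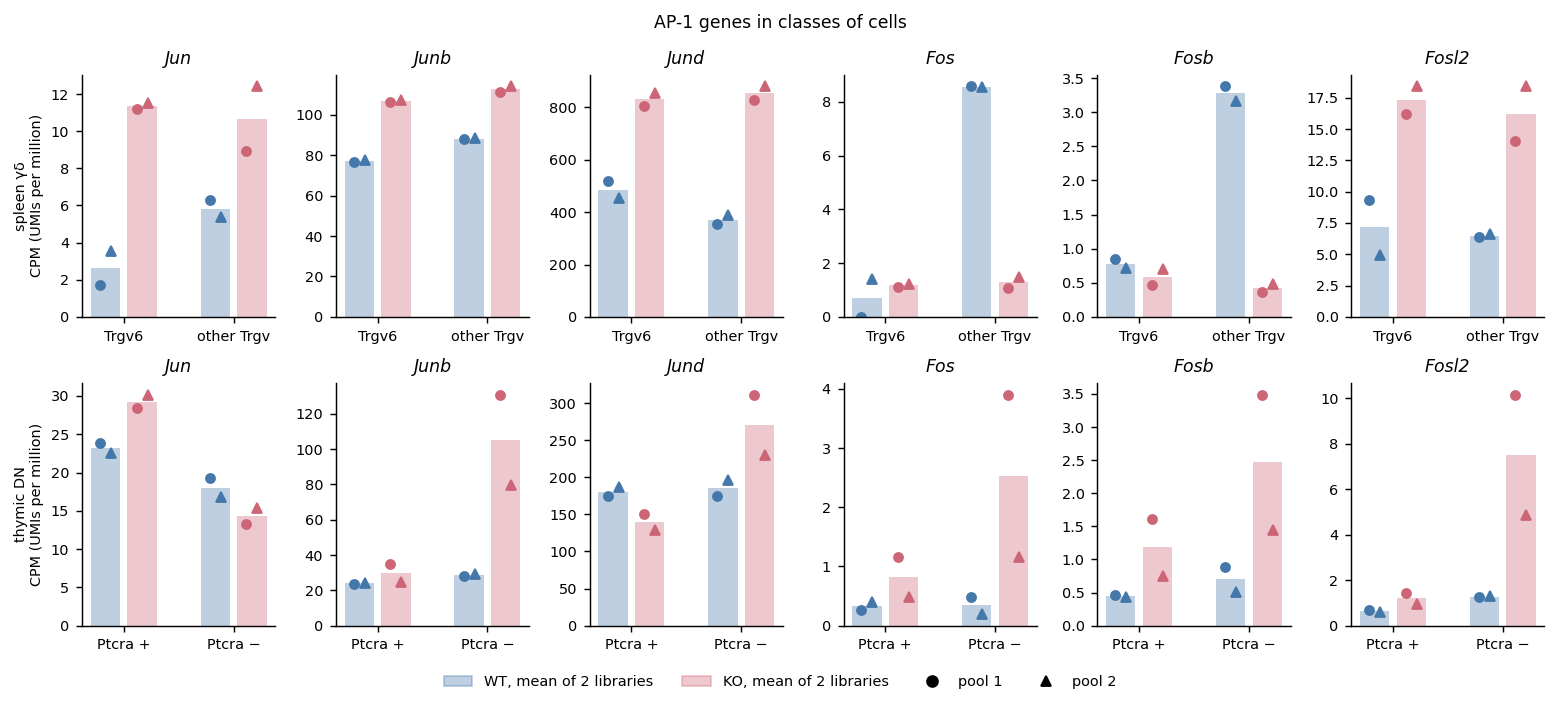
CPM of 6 members on linear axes from 0 in splenic cells called for Trgv6 or for another Trgv gene (top) and in DN cells with and without a Ptcra UMI (bottom), with bars for the mean of 2 WT (blue) or KO (red) libraries, circles for pool 1 and triangles for pool 2. In splenic cells called for another Trgv gene, Fos is at 8.58 and 8.53 CPM in WT and 1.09 and 1.48 CPM in KO, and in DN cells without Ptcra, Junb is at 28.1 and 29.2 CPM in WT and 131 and 79.7 CPM in KO.

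Of 29 other immediate early genes tested, 7 rose and 10 fell in splenic KO, 15 rose and 7 fell in thymic γδ T KO, and 19 rose and 2 fell in DN KO, and 0 were called between pools in any population. Of all genes, 54.8%, 49.7% and 23% passed in these comparisons, so the share in spleen was close to that of all genes. The 3 most changed well-expressed genes in spleen were the growth regulator Myc (log2 difference -3.18), Zfp36l2 (-1.37) and Zfp36l1 (1.23), both RNA decay factors. For thymic γδ T cells they were Rgs1 (3.65), a brake on G protein signals, Ier5 (1.63) and Zfp36l1 (1.58), and in DN cells Klf2 (2.92), a regulator of T cell migration, Rgs1 (2.69) and Zfp36 (1.91). The Egr and Nr4a genes, induced by T cell receptor signals, were grouped after their values were seen: in spleen Egr1 (-1.20), Egr2 (-3.35), Egr3 (-3.69), Nr4a1 (-2.69), Nr4a2 (-2.33) and Nr4a3 (-3.56) all fell. Among them only Nr4a1 (-1.92), Nr4a2 (-2.21) and Nr4a3 (-1.58) passed in thymic γδ T cells, and in DN cells Egr1 (1.21), Egr2 (1.72), Egr3 (2.56) and Nr4a3 (1.66) rose. Ier2 and Dusp1, other immediate early genes singled out after their values were seen, rose in splenic KO (1.10 and 1.59).

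Among 25 other bZIP genes of the AP-1 superfamily, 10 rose and 9 fell in spleen, 8 and 4 in thymic γδ T cells, and 5 and 3 in DN cells, beside 54.8%, 49.7% and 23% of all genes, so the thymic γδ T share was close to that of all genes. Maf, which encodes the c-MAF regulator of IL-17-producing γδ T cells, rose in all 3 (3.77, 1.61 and 3.55), Bach2, a repressor at AP-1 sites, fell in spleen (-3.52) and thymic γδ T cells (-1.58), and Cebpb rose in thymic γδ T cells (2.00) and Batf in DN cells (1.15). Of 23 MAP kinase and SRF genes, which act upstream of Fos and Jun, 7 rose and 7 fell in spleen, 3 and 4 in thymic γδ T cells, and 5 and 1 in DN cells, again beside 54.8%, 49.7% and 23% of all genes. Mapk8, which encodes the kinase JNK1, fell in spleen (-1.10) and thymic γδ T cells (-0.68), and Dusp10, a phosphatase of JNK and p38, fell in all 3 (-0.86, -1.46 and -0.65). Of 13 heat shock genes, which respond to handling stress as AP-1 genes also do, 4 rose and 0 fell in spleen, 3 and 2 in thymic γδ T cells, and 2 and 1 in DN cells, and these counts too stand beside 54.8%, 49.7% and 23% of all genes. The endoplasmic reticulum chaperone Hspa5 was higher in each (1.63, 1.09 and 0.76) and Hsph1 in spleen (1.06), whereas the chaperones Hsp90aa1 (-1.12) and Hspd1 (-0.80) were lower in KO thymic γδ T cells and Hspd1 (-0.64) in KO DN cells. The median log2 difference of the list was 0.42 in spleen, -0.15 in thymic γδ T cells and -0.27 in DN cells. Its summed level went from 3976 to 4351 CPM in splenic WT to 4733 to 6198 CPM in KO, from 6527 to 6727 CPM to 4693 to 5807 CPM in thymic γδ T cells, and from 9500.3 to 9652 CPM to 6561 to 8509 CPM in DN cells.

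Lists of markers of other cell types moved with genotype. Their part in the member differences was tested only by leaving out cells with Trac, B or myeloid markers, and not for NK or erythroid markers. In γδ T libraries this left out 15.6% to 30.5% of cells, nearly all for a Trac UMI. Of splenic WT cells with under 3 Fos UMIs, 30.2% and 23.6% had Trac while 92.3% and 95.2% had Trdc. A Trac UMI therefore does not by itself mark an αβ T cell here. Over the 12 libraries the NK list was mostly Eomes and Klrb1c (means of 14.6 and 11.7 CPM). The summed αβ T cell markers (Trac, Cd4, Cd8a, Cd8b1) were 199 to 251 CPM in splenic WT and 59.98 to 65.2 CPM in KO, and 27.3 to 31.3 against 72.0 to 164 CPM in DN cells. In DN cells, NK markers went from 5.26 to 6.91 CPM in WT to 13.6 to 20.6 CPM in KO (2 of 4 called higher), and B markers from 115 to 122 CPM to 136 to 264 CPM (2 of 6 tested called higher), together with the higher Fos, Fosb, Junb and Fosl2 of those libraries. NK markers were 95.8 to 114 CPM in splenic WT and 9.78 to 10.7 CPM in KO, and erythroid markers 38.8 to 44.0 against 75.0 to 167 CPM. The 8 myeloid markers summed to 92.0 to 106 CPM in splenic WT and to 313 to 338 CPM in KO. Of 6 tested, 1 was called higher, Cst3, at 101.6 and 90.7 CPM in WT and 312 and 337 CPM in KO. The other 7 were at most 3.14 CPM in any splenic library, so the sum follows Cst3 and does not show a rise of the list. B-marker cells were at most 0.820% of any library. Splenic B markers summed to 222 to 442 CPM in WT and to 63.2 to 120 CPM in KO. Over the 12 libraries, Ighm (mean 132 CPM) and Cd79b (27.3 CPM) held most of the B list, and its other genes had means of at most 1.28 CPM. The B sums therefore follow Ighm and Cd79b and do not show which way the other B markers went. In thymic γδ T cells, the B sum went from 156 to 158 CPM to 64.2 to 81.6 CPM. The αβ T sum went from 65.2 to 70.0 CPM to 54.4 to 54.9 CPM and the NK sum from 12.5 to 16.6 CPM to 4.14 to 14.3 CPM. The myeloid sum there went from 90.4 to 96.6 CPM to 175 to 186 CPM. Most of it was Cst3, at 95.6 and 88.7 CPM in WT and 185 and 174 CPM in KO, so it too does not show a rise of the list. Without B-marker, myeloid-marker and Trac cells, the members called between KO and WT were the same as in the full data, apart from Fosb in thymic γδ T cells and Junb in DN cells, which were lost.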

How the data were processed

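Gene expression was deposited as UMI counts per gene and cell, not normalized, which the authors had aligned to GRCm39 with Cell Ranger 8.0.1 (submitters' processing notes) and split by hashtag with hashsolo. The own hashtag led in 99.6% to 100% of cells. Cells with at least 500 UMIs, 200 genes and at most 20% mitochondrial UMIs were kept, as in the study, with no doublet caller, and 0 barcodes were shared within a pool (5 to 34 across). Counts were summed per library, ribosomal, Gm and mitochondrial genes were left out, and edgeR 4.0.16 (quasi-likelihood test, TMM, filterByExpr) was fitted in R 4.3.3 to all 12 libraries with Benjamini-Hochberg adjustment at 0.05. CPM used all UMIs of a library as the total. In simulated splenic counts, the fit called 95% of 100 genes changed 2-fold and 100% of 100 changed 4-fold, and 9 unchanged genes of 14591. The simulation gave all libraries the same expression profile and all genes the same spread. It changed only well-covered genes, and far fewer than passed in the data. These rates therefore do not carry over to the data, nor to rare members such as Fosl1 and Atf3. Classes were tested on sums per library and class. Alternatives were DESeq2 1.42.0, RLE factors, other filters, a replicate block, single libraries left out, and 1 added after seeing the data.

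WT and KO of a pool shared a droplet run, so pool numbers pair libraries. Deviations from group means correlated at 0.29 in spleen, 0.063 in thymic γδ T cells and 0.175 in DN cells over genes. All 8 members are named throughout, and from other lists up to 3 called genes of largest difference whose mean over libraries reached 20 CPM; the Egr and Nr4a genes, Ier2, Dusp1 and the genes described in Fos-high cells fall outside this rule and were chosen after their values were seen. Members and lists were chosen with earlier results of these data known. Intervals on counts cover counting error only. No other series' columns were used.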

Additional observations from a re-analysis of the deposited data

Results flagged for a closer look

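These results are listed because the effect of KO differed between 2 populations by the interaction test of edgeR's quasi-likelihood fit, over 14911 genes, of which 29.5% and 21.8% differed in the same way. Between spleen and thymic γδ T cells the log2 difference of the KO effect was -1.55 for Junb, 0.68 for Jund, -2.01 for Fos and -5.33 for Atf3, the last a fitted value that rests on 3 and 0 UMIs in splenic KO and on 2 and 1 UMIs in thymic WT libraries and is not a bound. Between thymic γδ T cells and DN cells it was 1.54 for Jun, -3.26 for Fos and -2.87 for Fosb. Spleen and thymus libraries also differed in droplet run and in Xist, and these cannot be told apart from the population.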

How the results depend on the processing

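No called member difference changed direction under any alternative. With the alternatives that leave out no single library, 652 of the member values kept their side of the threshold, 19 lost and 17 gained it and 4 uncalled values changed sign by more than their SE, and with single libraries left out 550 kept, 57 lost and 25 gained it and 21 changed sign in that way; the causes of the changes were not tested. DESeq2 called 112, 7 and 741 genes between the pools of spleen, thymic γδ T and DN cells (0 members), where edgeR called 11, 0 and 2. It also called 35 genes between Trgv6-called and other cells of splenic KO, 1899 genes and 1 member in thymic KO, 1 member between genotypes in thymic Trgv6-called cells, 0 members between Ptcra classes in WT, 3594 genes between them in KO, and 1 member between genotypes in Ptcra cells. Without the filter on low counts, 17 and 14 genes differed between the pools of spleen and DN cells, and with ribosomal, Gm and mitochondrial genes kept, 18 and 4 did. With only the DN libraries in the fit, 2074 genes differed between genotypes. Without B-marker, myeloid-marker and Trac cells, a setting chosen after seeing the data, 1982 genes differed between genotypes and 94 between pools in DN cells, and 5 members had KO effects that differed between thymic γδ T and DN cells. Where a Trgv call needed 2 UMIs, 49 genes differed between the classes of splenic KO, 0 members between those of thymic WT, and 0 members and 595 genes between genotypes in thymic Trgv6-called cells. With the pools as a replicate block, 3 members and 3481 genes differed between genotypes in Ptcra cells, and the other member call it changed, that of Fosb, stands beside its result. No paired analysis was possible for the WT levels between populations, although it had been planned, because no droplet run held 2 populations.

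Leaving out 1 library at a time leaves an arm with a lone library, which is assumed to vary like the others. In the full fits, 54.8%, 49.7% and 23% of all genes passed between genotypes in spleen, thymic γδ T and DN cells. Counts of members called do not by themselves show that the members are stable. Between genotypes, 5 to 6 members were called in spleen, 4 to 5 in thymic γδ T cells, and 3 to 5 with 1675 to 5038 genes in DN cells. The KO effects in spleen and thymic γδ T cells differed for 1 to 4 members and 2634 to 3609 genes, and those in thymic γδ T and DN cells for 2 to 5 members and 1883 to 3943 genes. WT spleen and WT thymic γδ T cells differed in 2 to 3 members and 5095 to 5973 genes, and WT thymic γδ T and DN cells in 4 to 6 members and 4654 to 5360 genes. Between pools, 0 to 2 genes differed in spleen, and 0 to 2 members and 0 to 1218 genes in DN cells, where Fosl2 passed without WT pool 1 (-1.22, adjusted p = 0.0416) and without WT pool 2 (-1.24, 0.0392), as did Jund without WT pool 2 (-0.37, 0.0483). Trgv6-called and other cells differed in 2508 to 3427 genes in splenic WT, 38 to 236 genes in splenic KO, 0 to 2 members and 57 to 597 genes in thymic WT, and 0 to 4 members and 1004 to 4195 genes in thymic KO. KO and WT differed in 0 to 4 members and 559 to 1989 genes in splenic Trgv6-called cells, 5622 to 7155 genes in splenic other-called cells, 0 to 2 members and 897 to 1273 genes in thymic Trgv6-called cells, and 3 to 6 members and 2785 to 6711 genes in thymic other-called cells. Ptcra classes differed in 0 to 3 members and 583 to 4456 genes in WT and in 5 to 7 members and 4723 to 7370 genes in KO. Genotypes differed in 0 to 3 members and 918 to 2631 genes in Ptcra cells and in 2 to 6 members and 1012 to 5769 genes without Ptcra.

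A gene with 3 UMIs in a library stands at 0.0419 to 0.0713 CPM, so Fosl1 and Atf3 lie near the limit of detection. For shares of cells with a UMI, the KO minus WT differences in percentage points were compared before and after thinning. Of these values, 28 moved by more than the spread between libraries and 20 did not. Thinning lowers most shares and with them these differences, so the 28 do not by themselves show a change in the order of genotypes.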

Other observations

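For the 2 members with a mean of at least 20 CPM, the genes with the most similar log2 CPM over the 12 libraries were named among 6723 genes compared, as a description with no test, since the libraries share populations, genotypes and runs. For Junb they were Lax1 (Pearson r = 0.988), Apol7e (0.982), Il23r (0.979), Cers4 (0.977) and Adgrg5 (0.976). For Jund they were Nipal3 (0.993), Sugt1 (0.989), Sike1 (0.988), Cd48 (0.988) and Ric8a (0.988).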
